A study of Mus musculus with 10 samples.

Results

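The 35 genes described here encode the folding, quality control and export machinery of the endoplasmic reticulum (ER) and the sensors of the unfolded protein response. They were taken by name from a list of symbols, and all 35 were found among the 32899 genes with transcripts in the table. RNA was sequenced from male preadipocytes, the precursors of fat cells, of the wild-type strain labelled C57 BL6, taken from inguinal subcutaneous adipose tissue (iSAT) of the mouse. The controls were 5 libraries of vehicle-exposed cells (DMSO), and another 5 were of cells exposed to BPS at 2.5 µM in the same solvent. BPS is bisphenol S, an analogue of bisphenol A, and the series' title names reactive oxygen species in connection with the adipogenic action of such compounds. The exposure time was not given in the sources used here, nor was it said whether replicates were separate animals or dishes, so p-values measure the spread between these libraries, which may be technical.

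Proteins bound for the cell surface or the matrix enter the ER through the Sec61 channel and fold there with the help of chaperones and disulfide isomerases, and those that fail are returned to the cytosol and degraded. When unfolded protein accumulates, the sensors IRE1 (Ern1), PERK (Eif2ak3) and ATF6 (Atf6) start the unfolded protein response. IRE1 splices the messenger RNA of Xbp1, PERK slows translation, and cleaved ATF6 and the Xbp1 product raise the chaperone and degradation genes. Fibroblast-like cells such as preadipocytes secrete much collagen, which needs dedicated folding helpers.

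A number of these genes share a promoter sequence. The ER stress element, which ATF6 is known to bind together with the CCAAT factor NF-Y, was searched as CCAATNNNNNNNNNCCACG on both strands, in windows from 250 bases before to 50 bases after each RefSeq gene start (GRCm38.p6). Of the 35 genes, 30 had such a window, and 9 of these (30%) held the element. Among all 27025 genes with a window, 37 held it (0.137%). Of the further ER pathway genes described below, 66 had a window, and 1 of these, Ero1b, held it. The genes were listed for their ER roles, so these shares describe the list and were not tested. The sites are shown because they are the response element that these 9 promoters have in common. Each is printed 5′ to 3′ on the strand that reads CCAAT before CCACG, with these boxes in capitals and 15 flanking bases on each side:
Hspa5: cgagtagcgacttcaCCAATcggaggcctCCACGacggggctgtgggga
Hsp90b1, near site: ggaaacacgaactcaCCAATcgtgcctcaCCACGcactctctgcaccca
Hsp90b1, far site: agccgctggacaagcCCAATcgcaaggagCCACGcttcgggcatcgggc
Calr: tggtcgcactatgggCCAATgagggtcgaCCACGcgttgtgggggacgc
Canx: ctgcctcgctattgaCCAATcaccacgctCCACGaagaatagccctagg
Pdia6: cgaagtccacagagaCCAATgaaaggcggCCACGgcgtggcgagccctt
Creld2: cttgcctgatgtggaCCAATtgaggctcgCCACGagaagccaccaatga
Dnajc3: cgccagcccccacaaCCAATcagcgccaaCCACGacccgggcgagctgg
Syvn1: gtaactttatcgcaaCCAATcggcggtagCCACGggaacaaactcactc
Derl3: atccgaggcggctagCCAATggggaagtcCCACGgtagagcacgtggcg

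Only exact matches were counted, and near matches were not searched. The element found in Hspa5, the gene of the chaperone BiP, is at chr2:34772025-34772043 (+), from -65 to -47. The other sites, in the same order, are at chr10:86705533-86705551 (+) and chr10:86705638-86705656 (-) for Hsp90b1, chr8:84847075-84847093 (+) for Calr, chr11:50325800-50325818 (-) for Canx and chr12:17266491-17266509 (+) for Pdia6. Those of Creld2, Dnajc3, Syvn1 and Derl3 are at chr15:88819520-88819538 (-), chr14:118937827-118937845 (+), chr19:6046532-6046550 (+) and chr10:75893242-75893260 (-). All 10 sites lay before the gene start, the nearest that of Syvn1 from -44 to -26 and the farthest the far site of Hsp90b1 from -212 to -194. Both orientations occurred: the sites of Calr, Creld2 and Derl3 and the near site of Hsp90b1 were on the strand opposite to the gene. The 250 bases before the Hspa5 start, chr2:34771840-34772089 (+), show it in its context, with the boxes in capitals:
Hspa5 promoter: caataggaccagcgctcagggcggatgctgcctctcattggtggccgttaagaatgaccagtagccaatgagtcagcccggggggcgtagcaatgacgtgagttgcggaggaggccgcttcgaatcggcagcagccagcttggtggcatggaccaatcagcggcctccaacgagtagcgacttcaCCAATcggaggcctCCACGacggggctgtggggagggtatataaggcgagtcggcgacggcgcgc

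Other response elements were rarer among the 30 genes. The second ER stress element, searched as ATTGGNCCACG on both strands, was in the windows of Herpud1 and Dnajb11, and in those of 12 of all 27025 genes (0.0444%). That of Herpud1 is at chr8:94386377-94386387 (+), with the matched bases in capitals:
Herpud1: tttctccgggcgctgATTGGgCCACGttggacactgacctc
The unfolded protein response element, searched as TGACGTGG on both strands, was in the window of 1 gene, Sec24d, against 193 of all genes (0.714%). It was in 5 of the 66 further pathway genes with a window. The sites of these 3 motifs did not overlap one another in these windows. A match describes the letters of a window and says nothing of whether a factor was bound in these cells.

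Of the 35 genes, 34 passed the filter on low counts and were tested. Derl3, a derlin of the degradation pathway, had 0 to 5 counts in DMSO libraries and 0 to 6 in BPS libraries, which is too few reads, beside a floor of 3 counts, to detect a change. The tested genes were deeply covered, from 510 counts in the lowest library of Sdf2l1 to 131586 in the highest of Serpinh1. Total estimated counts per library lay between 37920689 and 42717227. Levels below are in CPM, relative to the counts assigned to genes after TMM scaling.

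Levels can be compared between genes only per transcript length, here as CPM per kilobase. Serpinh1, which encodes the collagen chaperone HSP47, stood highest in DMSO at 1463 ± 35.4 CPM per kilobase (SD, n = 5). Hsp90b1 followed at 727 ± 13.1, Calr at 686.9 ± 10.1 and P4hb at 672.8 ± 7.61 CPM per kilobase. These are the ER HSP90 GRP94, the lectin chaperone calreticulin, and the isomerase that is also the β subunit of collagen prolyl hydroxylase. The ranges of Calr (670.5 to 697.6) and P4hb (663.5 to 684.7) overlapped, so their order was not separated. Hspa5 stood at 470.7 ± 10.6, Pdia3 at 452.8 ± 1.61 and Ppib at 439.5 ± 8.8 CPM per kilobase. The sensors were at the bottom of the order, with Atf6 at 12.09 ± 0.506, Eif2ak3 at 8.795 ± 0.11 and Ern1 at 3.802 ± 0.296 CPM per kilobase, and only the translocon gene Ssr1 lay among them, at 5.698 ± 0.094. The same 4 genes were the lowest in BPS, from 3.901 ± 0.311 for Ern1 to 13.16 ± 0.635 CPM per kilobase for Atf6. The lengths are those of GENCODE M21 transcripts. For Hyou1, Syvn1 and Atf6 the transcript that gave the length held only 1.8%, 20.1% and 28.2% of the gene's counts, so their places are uncertain.

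**Figure D1:**
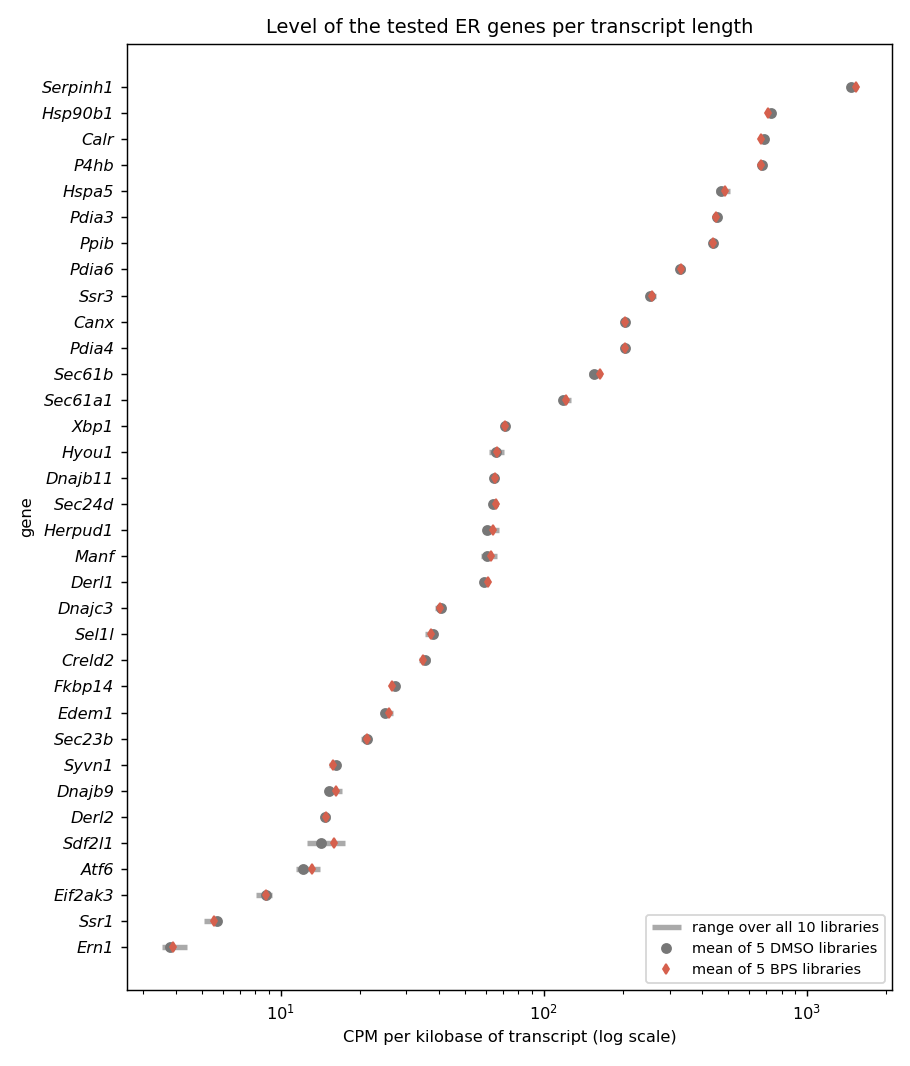
Mean level of the 34 tested ER genes in CPM per kilobase of transcript (log scale), for 5 DMSO (circles) and 5 BPS libraries (diamonds), with the range over all 10 libraries as a grey bar. Serpinh1 is at the top at 1463 in DMSO, Ern1 at the bottom at 3.802, and the group means lie nearly on top of each other for most genes.

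The preadipocyte label was checked on markers. The 8 preadipocyte markers summed to 3074 to 3095 CPM in DMSO and 3128 to 3184 CPM in BPS libraries. Pdgfra, Pdgfrb, Thy1 and Dlk1 made most of this sum. Low levels were seen for Dpp4, at 2.179 to 2.84 CPM in DMSO, and Zfp423, at 9.273 to 10.41 CPM. Of the 8, 2 rose, Cd34 and Thy1 (edgeR adjusted p = 0.000429 and 0.0013), and 3.06% of all genes tested rose at an adjusted p under 0.05. The 6 adipocyte markers were at most 0.2282 CPM in sum, and Lep was at 0 counts in all 10 libraries. Sums were 10.52 to 16.52 CPM in DMSO and 11.59 to 18.82 CPM in BPS for 6 macrophage markers (Csf1r at 0 counts), and 17.93 to 23.96 and 17.38 to 23.44 CPM for 6 endothelial markers. For 6 mural markers they were 58.16 to 63.94 and 64.51 to 72.91 CPM (Cspg4 rose), and for 5 mesothelial markers 9.057 to 11.03 and 10.99 to 12.9 CPM (Krt19 rose, Msln and Upk3b at 0 counts). Krt19 made most of the mesothelial sum, at a mean of 9.339 CPM in DMSO. The other mesothelial marker tested, Wt1, at a mean of 0.8492 CPM in DMSO, pointed down without passing (log2 fold change -0.5913, edgeR adjusted p = 0.155). The part of these lists in the values below was not tested, and in bulk RNA fewer cells of a type and less RNA per cell cannot be told apart. The library numbers in the labels run through all DMSO libraries before the BPS libraries, so a batch in that order and the treatment cannot be told apart.

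Under BPS, 0 of the 34 tested genes rose and 0 fell at an adjusted p under 0.05 (edgeR's quasi-likelihood test, Benjamini-Hochberg adjustment over 14593 genes). Over all genes tested, 4.87% passed, 3.06% higher and 1.82% lower, so that 62.7% of calls were higher (46.0% with library size alone). At an unadjusted p under 0.05 by edgeR there were 10 of the 34, 9 higher and 1 lower, against 18.9% of all genes; this count was 4 without BPS replicate 5, 5 without BPS replicate 3, 6 without DMSO replicate 1, 2 or 5 and 7 to 12 in the other alternatives. The DESeq2 Wald test called 2, Serpinh1 and Atf6, both higher. limma-voom called 0. The smallest adjusted p by edgeR among the 34 was 0.0622, that of Serpinh1.

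Log2 fold changes, BPS minus DMSO, ran from -0.043 for the ubiquitin ligase gene Syvn1 to 0.17 for Sdf2l1. The median was 0.0091, against 0.0002 over all genes tested. The estimates were above 0 for 22 of the 34 genes (64.7%) and for 50.1% of all genes, a count with no test that fell to 15 of 34, with a median of -0.0057, if only library size set the scaling. Replicates of these genes lay close together. The median coefficient of variation over DMSO libraries was 1.84% for the 34 genes and 5.01% for all genes, whose levels are mostly lower, and the median standard error of a log2 fold change was 0.0225 against 0.0496. The 95% intervals, taken gene by gene, were therefore narrow. Over all 14593 genes tested, 5731 lay within a 1.1-fold change either way and 9383 within 1.2-fold. Of the 34 genes, 29 lay within 1.1-fold and 33 within 1.2-fold. The exception, Sdf2l1, had an interval from 1.54% to 25.1% higher. A p that misses the threshold does not show that a gene was unaffected. These intervals reflect only the spread between libraries in the main fit, not the choice of processing. With transcripts matched by exact version, the estimates of Eif2ak3 (-0.1213) and Atf6 (0.2169) lay outside their intervals.

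**Figure D2:**
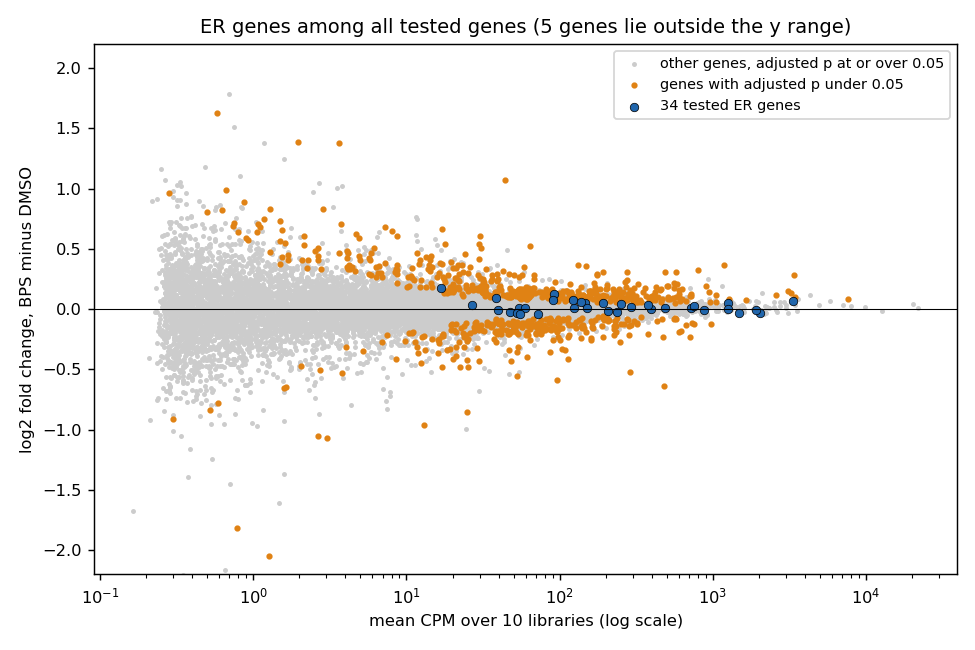
Log2 fold change of BPS minus DMSO against mean CPM over 10 libraries (log scale) for all 14593 tested genes, with genes at an adjusted p under 0.05 in orange and the 34 tested ER genes in blue; 5 genes lie outside the y range. The ER genes sit in the narrow band around 0, between -0.043 and 0.17, and none of them is among the called genes.

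The sensors and Xbp1 came first in the pathway. The values are RNA levels, and the activity of the sensor proteins was not measured. Atf6, the membrane-bound transcription factor, stood at 90.31, 84.37, 89.17, 82.96 and 91.06 CPM in DMSO replicates 1 to 5 and at 91.17, 102.5, 91.35, 95.79 and 95.9 CPM in BPS replicates 1 to 5. The groups did not overlap, though the lowest BPS library and the highest DMSO library nearly met. The fitted log2 fold change was 0.12 (SE 0.04), a 95% interval of 2.97% to 15.1% higher, and it did not pass (edgeR adjusted p = 0.0833). It passed in the DESeq2 Wald test (adjusted p = 0.0428), and BPS replicate 2 was the farthest from DMSO: without it the log2 fold change was 0.0952 (edgeR adjusted p = 0.153). With transcripts matched by exact version it was 0.2169 with a wider error (SE 0.143, edgeR adjusted p = 0.531).

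Ern1, the kinase and endonuclease IRE1, stood at 26.31, 25.76, 25.58, 24.48 and 29.89 CPM in DMSO and at 24.9, 30.62, 26.11, 27.37 and 26.46 CPM in BPS. One library in each group was high, and the rest overlapped (log2 fold change 0.037, SE 0.062, interval -6.6% to 12.7%, edgeR adjusted p = 0.815). Its sign turned without BPS replicate 2 (-0.0104). Eif2ak3, the kinase PERK, stood at 40.05, 39.19, 39.33, 39.52 and 40.36 CPM in DMSO. In BPS it stood at 36.32, 41.91, 39.98, 39.44 and 40.38 CPM. BPS libraries held both the lowest and the highest value, and the means nearly coincided (log2 fold change -0.0039, SE 0.037, edgeR adjusted p = 0.974). The sign of this value turned with upper-quartile scaling (0.0009). With transcripts matched by exact version the estimate for Eif2ak3 was -0.1213 (SE 0.0918, edgeR adjusted p = 0.596).

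Xbp1, the transcription factor gene whose RNA IRE1 splices, stood at 149.8, 151.9, 151.1, 154.5 and 147.6 CPM in DMSO and at 149.5, 155.7, 155.8, 149.2 and 147.4 CPM in BPS. The groups overlapped fully, and the 95% interval was -2.67% to 3.47% (edgeR adjusted p = 0.93). With library size alone the log2 fold change turned from 0.0051 to -0.0097. The table held a pair of Xbp1 transcripts, and the sources used here do not say which of them is the spliced form, so the planned test of splicing was not run. The less abundant one took 13.8%, 4.56%, 0.00408%, 11.3% and 9.65% of the gene's estimated counts in DMSO replicates 1 to 5. In BPS replicates 1 to 5 it took 7.19%, 10.4%, 11.6%, 9.57% and 7.93%. The DMSO shares ran from nearly none to above every BPS share. How kallisto divided reads between near-identical transcripts could move these shares, and that was not tested.

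Among 11 chaperones and their helpers, 0 rose and 0 fell (3.06% and 1.82% of all genes tested). The median log2 fold change was 0.0094. Hspa5 encodes BiP, the ER HSP70 that holds the sensors inactive. It stood at 1235, 1216, 1274, 1223 and 1201 CPM in DMSO and at 1174, 1328, 1298, 1263 and 1293 CPM in BPS. In 3 BPS libraries it was above every DMSO library, and in BPS replicate 1 below them all. The log2 fold change was 0.047 (SE 0.029), with an interval of -1.17% to 8.07% (edgeR adjusted p = 0.437), and it was 0.0747 without BPS replicate 1 (edgeR adjusted p = 0.0566).

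Hsp90b1 went the other way, at 2114, 2056, 2043, 2016 and 2039 CPM in DMSO and 1991, 2052, 1998, 2006 and 1996 CPM in BPS. All BPS libraries but replicate 2 were below the lowest DMSO library. The estimate for Hsp90b1 was -0.032 on the log2 scale (SE 0.015, edgeR adjusted p = 0.282), with an interval from 4.41% lower to 0.07% higher. Calr also lay slightly lower, at a mean of 1465 ± 24.9 CPM in BPS against 1500 ± 22.1 CPM in DMSO (SD, n = 5 each), and was the only one of the 10 genes with an unadjusted p under 0.05 that was lower (edgeR adjusted p = 0.256). Canx, the membrane-bound partner of calreticulin, was at 873.6 ± 16 and 869.3 ± 11.4 CPM.

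Dnajb9, the BiP co-chaperone ERdj4, was a gene whose groups did not overlap. It stood at 38.09, 36.38, 37.91, 37.99 and 36.95 CPM in DMSO and at 39.63, 40.05, 39.25, 38.37 and 41.96 CPM in BPS. Its log2 fold change was 0.089 (SE 0.028, edgeR adjusted p = 0.0923). Dnajb9 and Atf6 were the 2 of 34 genes without overlap, both higher, against 6.9% of all genes without overlap and 4.18% higher (2.72% lower). Sdf2l1, which works with BiP co-chaperones, had the largest estimate, 15.7 ± 1.18 against 17.7 ± 1.59 CPM (DMSO and BPS, SD, n = 5 each), and a wide spread between replicates (log2 fold change 0.17, SE 0.07, edgeR adjusted p = 0.197). Its lowest library was DMSO replicate 1, at 13.88 CPM. The other co-chaperones were nearly level: Dnajb11 had a log2 fold change of 0.0094, Dnajc3 of -0.015 and Hyou1, the large HSP70 relative GRP170, of 0.016. The secreted stress proteins Manf and Creld2 had 0.057 and -0.021.

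As a group the 4 disulfide isomerases had the narrowest bounds, with log2 fold changes from -0.0086 to 0.0087. Their intervals all lay between -2.4% and 3.2%. Those of Pdia4 and Pdia6 (SE 0.0165 and 0.0166) were wider than that of Hsp90b1 (SE 0.0151). P4hb stood at 1924, 1924, 1920, 1959 and 1898 CPM in DMSO and at 1891, 1930, 1918, 1917 and 1913 CPM in BPS (edgeR adjusted p = 0.775). The groups overlapped, with every BPS library inside or just below the DMSO range. Pdia3, which works with calreticulin and calnexin on glycoproteins, was the steadiest, with a coefficient of variation of 0.355% over DMSO libraries and means of 1254 ± 4.45 and 1253 ± 7.71 CPM (SD, n = 5 each). Pdia4 and Pdia6 had log2 fold changes of 0.0064 and 0.0087.

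**Figure D3:**
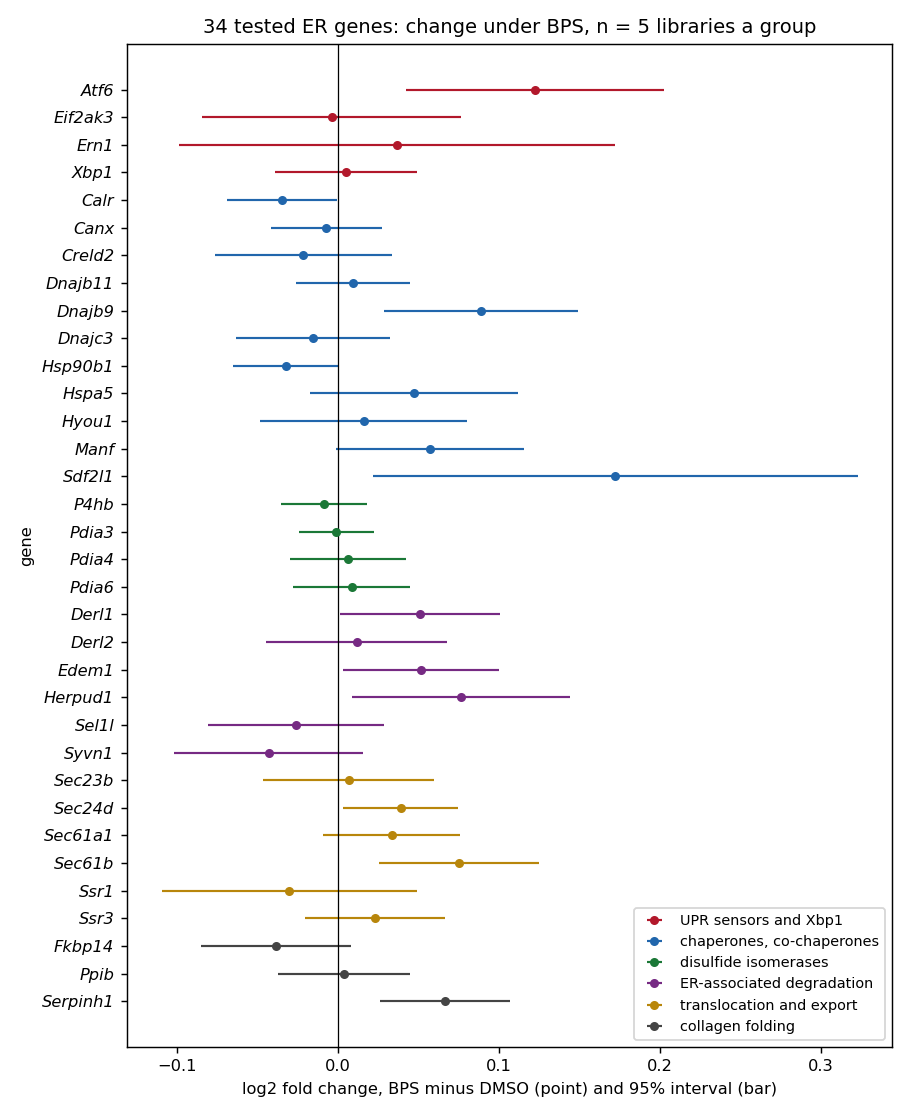
Log2 fold change of BPS minus DMSO (points) with gene-by-gene 95% intervals (bars) for the 34 tested ER genes, coloured by role, 5 libraries in each group. The intervals of the 4 disulfide isomerases are the narrowest as a group. Those of Sdf2l1, Atf6, Dnajb9, Sec61b, Serpinh1, Herpud1, Derl1, Edem1 and Sec24d lie to the right of 0, and that of Calr to the left. None of these genes passed the adjustment over all genes.

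In ER-associated degradation, 6 of 7 genes were tested, and 0 rose and 0 fell (3.06% and 1.82% of all genes tested). The median log2 fold change was 0.0315. Herpud1, which recruits components to the ubiquitin ligase complex, had the largest estimate. It stood at 114.6, 120, 121.8, 122 and 116 CPM in DMSO and at 118, 126.6, 132.2, 121.8 and 128.3 CPM in BPS. The groups overlapped, and BPS replicates 2, 3 and 5 were above all DMSO libraries (log2 fold change 0.077, SE 0.031, edgeR adjusted p = 0.204). Derl1, a channel component, and Edem1, which extracts misfolded glycoproteins, had log2 fold changes of 0.051 (SE 0.023) and 0.052 (SE 0.022), with adjusted p of 0.252 and 0.234 by edgeR. The ligase Syvn1 (HRD1) and its partner Sel1l pointed down, at -0.043 (SE 0.027) and -0.026 (SE 0.025). Derl2 was at 0.012.

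Of the 6 genes for entry into the ER and exit from it, 0 rose and 0 fell (3.06% and 1.82% of all genes tested). Sec61b, a subunit of the translocation channel, stood at 83.92, 88.34, 86.28, 91.57 and 88.82 CPM in DMSO and at 91.12, 93.51, 92.48, 92.97 and 92.5 CPM in BPS. Only DMSO replicate 4 reached into the BPS range. The log2 fold change was 0.076 (SE 0.023, interval 1.8% to 9.07%, edgeR adjusted p = 0.0852), and without DMSO replicate 4 it passed (0.0901, edgeR adjusted p = 0.0444). The channel's large subunit Sec61a1 had 0.033 (SE 0.020). The translocon-associated Ssr1 and Ssr3 had -0.030 and 0.023. Sec24d, a cargo adaptor of the COPII coat that carries procollagen out, had 0.039 (SE 0.016, edgeR adjusted p = 0.221), and its coat partner Sec23b 0.0068.

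Of the 3 collagen folding genes, 0 rose and 0 fell (3.06% and 1.82% of all genes tested). Serpinh1 came nearest to the threshold. It stood at 3153, 3243, 3299, 3336 and 3175 CPM in DMSO and at 3300, 3449, 3420, 3380 and 3424 CPM in BPS. All BPS libraries but replicate 1 were above the highest DMSO library. Its log2 fold change was 0.067 (SE 0.018, interval 1.85% to 7.7%, edgeR adjusted p = 0.0622). It passed in the DESeq2 Wald test (adjusted p = 0.0122) and without DMSO replicate 4 or BPS replicate 1 (edgeR adjusted p = 0.0468 and 0.0336), and leaving out any single library gave log2 fold changes of 0.0566 to 0.0768. Ppib, cyclophilin B, stood at 392.1 ± 7.85 and 393.2 ± 8.29 CPM (SD, n = 5 each), and Fkbp14, a prolyl isomerase, had a log2 fold change of -0.038 (SE 0.021, edgeR adjusted p = 0.373).

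**Figure D4:**
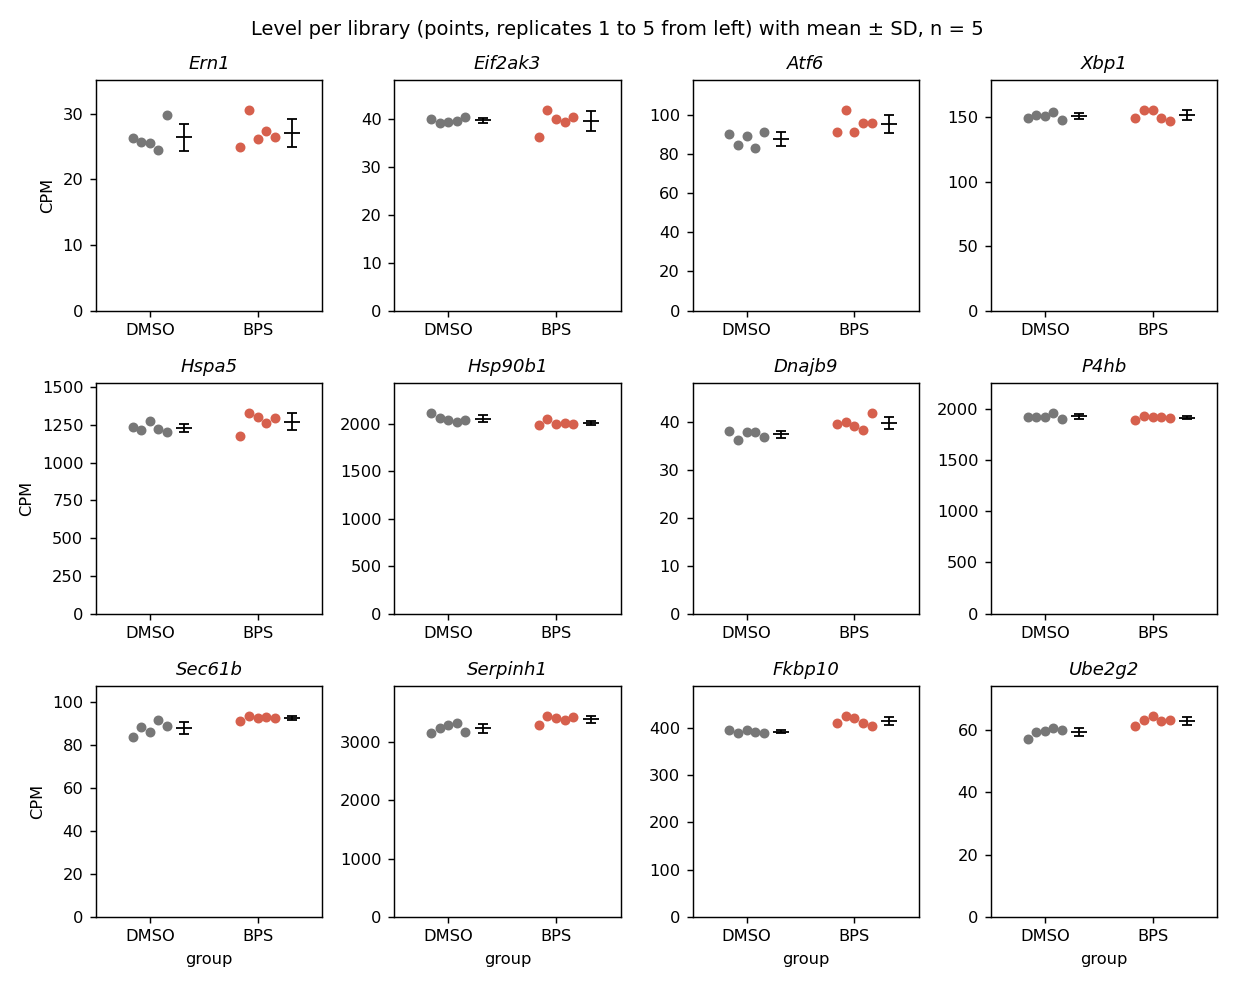
CPM of 12 genes in each library (points, replicates 1 to 5 from left; y axis from 0) with mean and SD at the right of each group, n = 5. The groups do not overlap for Atf6, Dnajb9, Fkbp10 and Ube2g2, though they nearly meet for Atf6, Dnajb9 and Ube2g2, and they overlap for the other genes. Fkbp10 and Ube2g2, the only 2 that passed, differ by a few percent.

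The rest of the pathway was read from 83 further genes of ER stress signalling, folding, degradation, translocation and export, all of them tested. Of these, 2 rose and 0 fell, and 3.06% and 1.82% of all genes did so. The median log2 fold change was 0.017, and 57 of the 83 estimates were above 0. With library size alone these became 0.0023 and 44, and the 2 calls were Fkbp10, higher, and Mbtps1, lower. Fkbp10, a prolyl isomerase that helps collagen fold in the ER, stood at 395.2, 389.6, 396.2, 390.9 and 389.5 CPM in DMSO and at 410.8, 425.1, 420.5, 410.8 and 403.1 CPM in BPS. The groups did not overlap, and the log2 fold change was 0.078 (SE 0.016, edgeR adjusted p = 0.0187). It was called in 16 of 19 alternatives and lost its call with the replicate block (edgeR adjusted p = 0.0575), without DMSO replicate 2 (0.0531) and without BPS replicate 3 (0.0507).

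Ube2g2, a ubiquitin-conjugating enzyme of ER-associated degradation, stood at 57.11, 59.22, 59.56, 60.5 and 59.94 CPM in DMSO. In BPS it stood at 61.15, 63.32, 64.5, 62.78 and 63.1 CPM. The groups did not overlap (log2 fold change 0.087, SE 0.022, edgeR adjusted p = 0.0453), but the call held in only 5 of 19 alternatives, with adjusted p of 0.0308 to 0.102 by edgeR when single libraries were left out. The call was lost without each of the 10 libraries except BPS replicate 1.

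Of the outputs of the PERK branch, none of the 3 described here passed the test. These are RNA levels, and neither their proteins nor the activity of PERK was measured. Atf4, its main transcription factor, stood at 350.6, 358.2, 372.4, 361.4 and 348.7 CPM in DMSO and at 359.1, 365, 370.6, 362.3 and 370.8 CPM in BPS (log2 fold change 0.029, SE 0.019, edgeR adjusted p = 0.476). Ddit3, the stress factor CHOP, stood at 64.19, 68.51, 68.81, 72.45 and 63.4 CPM in DMSO and at 64.06, 67.68, 71.03, 68.05 and 70 CPM in BPS (0.014, SE 0.039, edgeR adjusted p = 0.898). Both genes overlapped fully between groups, and the sign of Ddit3 turned with library size alone (-0.0008). Ppp1r15a, the phosphatase subunit GADD34 that restores translation, stood at 39.86, 40.68, 42.09, 41.57 and 38.63 CPM in DMSO. In BPS it stood at 40.71, 45.1, 45.46, 41.75 and 42.49 CPM (0.087, SE 0.036, edgeR adjusted p = 0.219). Its BPS values reached higher but the groups overlapped.

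The genes with the ER stress element were also read as a set. Of the 9, 8 were tested, and 2 of these, Hspa5 and Pdia6, had estimates above 0, with a median log2 fold change of -0.018. Of the 21 tested genes with a window and no such element, 15 were above 0, with a median of 0.0094. These 21 include Herpud1 and Dnajb11, with the second ER stress element, and Sec24d, with the unfolded protein response element, all above 0. Of all genes tested, 50.1% were above 0. The difference between the sets was not tested. With library size alone fewer genes of the whole list were above 0, and the sets were not recounted under that scaling. In both sets 0 genes passed the test, and 4.87% of all genes tested passed, a share at which sets this small may well hold none. Over all genes, 20 with the element were tested, 0 of them passed, and their median was 0.0007.

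The 10 libraries also differed among themselves in these genes. BPS replicate 2 held the highest value of 11 of the 34 genes and BPS replicate 1 the lowest value of 11, while BPS replicate 1 held the highest of 0. The median deviation from the DMSO mean was 0.0478 on the log2 scale in BPS replicate 2 and -0.0135 in BPS replicate 1, with the other 3 BPS libraries at 0.0173 to 0.0265. BPS replicate 1 was also the deepest library, with 42717227 estimated counts, and BPS replicate 2 the shallowest, with 37920689. The part of depth in this was not tested. Together the 35 genes took 1.74 ± 0.0121% of the counts assigned to genes in DMSO and 1.74 ± 0.0166% in BPS (SD, n = 5 each).

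**Figure D5:**
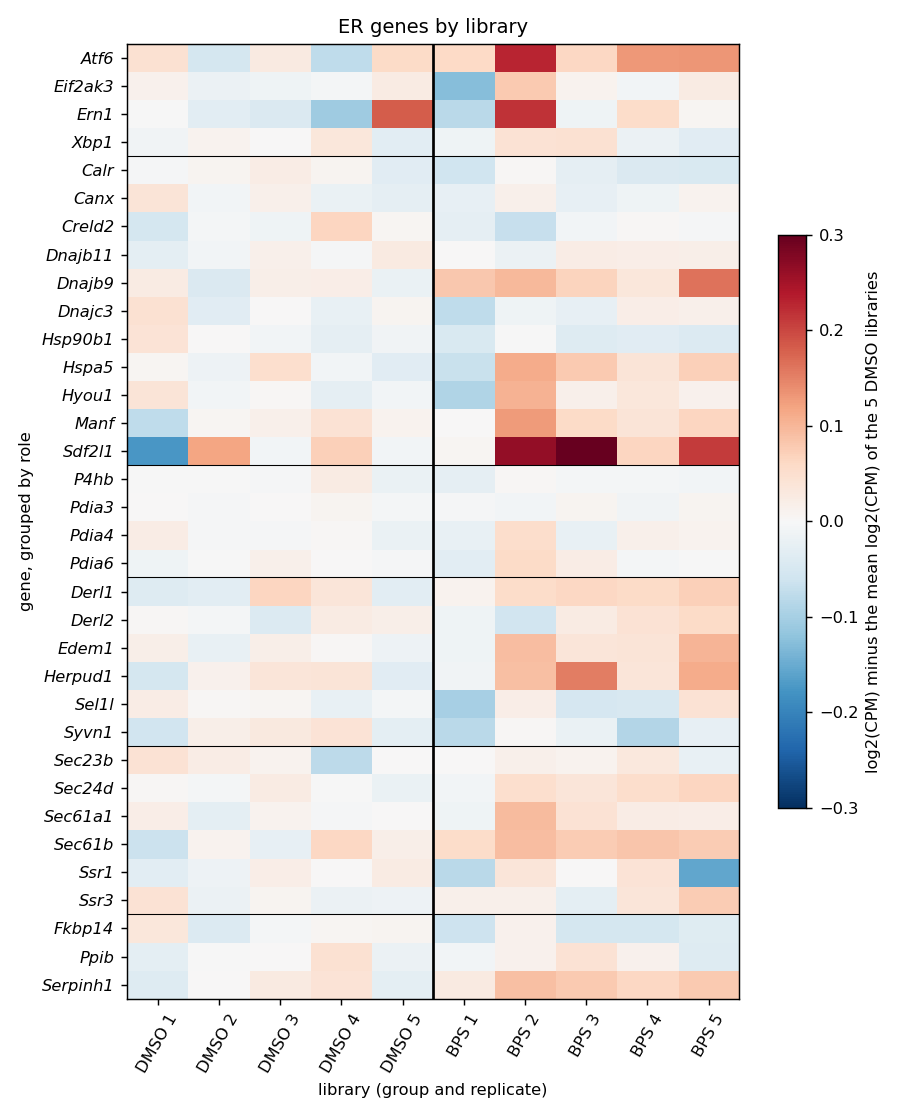
Log2(CPM) of the 34 tested ER genes in each of the 10 libraries, minus the mean of the 5 DMSO libraries, with genes grouped by role and colours that saturate at 0.3. BPS replicate 2 is red for most genes, BPS replicate 1, the lowest library for 11 genes, is blue for many, and Atf6, Derl1, Dnajb9, Manf, Sdf2l1, Sec61b and Serpinh1 are above 0 in all 5 BPS libraries, Manf and Sdf2l1 only barely in BPS replicate 1.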

How the data were processed

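The authors deposited estimated counts per RefSeq transcript, 1 column per library, made with kallisto 0.42.4 per the submitters' processing notes, and the index, build and strand setting were not given in the sources used here. These deposited expected counts were not scaled to a common depth. A RefSeq table of GRCm38.p6, matched by accession without version and used for names only, gave each transcript its gene, which covered 93.09% of counts (72.11% with exact versions). The other 6.91% stayed out. Counts were summed per gene, rounded, filtered with filterByExpr (14593 genes), scaled by TMM and tested with edgeR's quasi-likelihood test, BPS against DMSO, without covariates, with Benjamini-Hochberg adjustment. A standard error is the log2 fold change over the square root of F, and 95% intervals use the test's t quantile. Each library counted as its own sample in the fit. A chi-square over genes put pairs of replicates 4.13 to 8.77 times beyond counting noise. This spread does not show whether replicates were separate animals or dishes. The code was tested on simulated counts.

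The genes, the list of 83 further genes and the markers were chosen with earlier results of these data known. Values in every library are given for genes that passed, for Ern1, Eif2ak3, Atf6, Xbp1, Hspa5, Hsp90b1, Serpinh1 and P4hb, and, of the 83, for genes that passed and Atf4, Ddit3 and Ppp1r15a. Dnajb9, Sec61b and Herpud1 were added after their values were seen, as were the second ER stress element and the unfolded protein response element. The planned search of protein ends for retention signals was not run, as no protein sequences were used here. Alternatives were other scalings, filters and tests, a replicate block, exact version matching and leaving out each library. Fits used edgeR 4.0.16, DESeq2 1.42.0 and limma 3.58.1 in R 4.3.3, and tables were made with pandas 2.3.3 and numpy 2.4.6 in Python 3.11.15.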

Additional observations from a re-analysis of the deposited data

Results flagged for a closer look

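In 80 groups of 5 values, Dixon's test (95% level) picked out a single extreme library in 2. About 1 in 20 groups, here 4, would be picked by chance. Hsp90b1 stood at 2052 CPM in BPS replicate 2 and at 1991 to 2006 CPM in the other BPS libraries. Derl1 stood at 188.9 CPM in BPS replicate 1 and at 194.9 to 197 CPM in the other BPS libraries.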

How the results depend on the processing

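The number of changed genes among the 34 was 0 under each scaling, both filters, limma-voom, the replicate block and exact version matching (28 tested). It was 2 with the DESeq2 Wald test, and 0 to 2 when single libraries were left out (2 without DMSO replicate 4, Sec61b and Serpinh1, and 1 without BPS replicate 1, Serpinh1). Among the 83 further genes it was 2, and became 1 without a filter, 3 with at least 1 CPM in 5 libraries (Ostc added), 4 with DESeq2 (Fkbp10, Ube2g2, Ostc and Mbtps1, the last lower), 0 with the replicate block and 0 to 3 when single libraries were left out (0 without DMSO replicate 2 or BPS replicate 3). It was again 2, but with only Fkbp10 shared, with library size alone and exact version matching (Mbtps1 the other, lower) and with upper-quartile scaling (Pdia5 the other). Over all genes it was 711, with 371 under the block, 327 with exact version matching and 449 to 773 without single libraries. It was more than 1.5 times lower without DMSO replicate 2 (449) or BPS replicate 2 (462), 3 (465) or 4 (462). Higher genes were 62.7% of calls, and 46.0% with library size alone, which moved the median of all genes to -0.0144. DMSO and BPS libraries that share a replicate number had correlations of their deviations of 0.1, 0.004, -0.067, 0.072 and -0.078. Of the 5 DMSO libraries, 2 correlated best with their own number. These values do not show a pairing, but whether replicates shared an animal or a batch was not tested. The count of the 34 at an unadjusted p under 0.05 ran from 4 to 12.

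Signs turned in 4 of the 13 genes chosen by rule, a tally that does not cover Dnajb9, Sec61b and Herpud1. The log2 fold change of Ern1 became -0.0104 without BPS replicate 2, and was at most 0.0846 (without DMSO replicate 5) when single libraries were left out. That of Eif2ak3 became 0.0009 with upper-quartile scaling, 0.0023 without DMSO replicate 5 and 0.0268 without BPS replicate 1, and was -0.0249 without BPS replicate 2, the lowest with a library left out. Exact version matching gave -0.1213 for Eif2ak3 and 0.2169 for Atf6, and had no value for P4hb. That of Xbp1 became -0.0097 with library size alone, and -0.0029, -0.0047 and -0.0053 without DMSO replicate 5, BPS replicate 2 and BPS replicate 3, with 0.0148 the highest when a library was left out. That of Ddit3 became -0.0008 with library size alone, and -0.0037, -0.0073 and -0.0012 without DMSO replicate 1, DMSO replicate 5 and BPS replicate 3, with 0.0397 the highest when a library was left out, and 0.0532 with exact version matching. The cause was not tested. Their other values under alternatives kept direction and side of the threshold in 213 cases, lost a call in 17 and gained one in 4. The test of Xbp1 splicing and its alternatives were not run.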
